A study of Mus musculus with 5 samples.

Results

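The liver X receptors (LXRs), their target genes and the genes of cholesterol export were followed as a set of 10 genes in mouse macrophages, out of 49341 genes with a transcript in the files. The set was named gene by gene: the 2 receptors (Nr1h2 and Nr1h3), the export pumps Abca1 and Abcg1, the apolipoproteins Apoe and Apoc2, and Mylip, Lpcat3, Soat1 and Ch25h. Soat1 acts in cholesterol storage and Ch25h makes an oxidised cholesterol. Whether either is an LXR target in these cells was not tested. The value of a gene is its FPKM (a fragment count divided by transcript length and by the library's mapped total), summed over its transcripts. The cells were bone marrow-derived macrophages of wild-type C57BL/6 mice, differentiated for 6 days with CSF1 or L929-conditioned supernatant, after which 96% carried the macrophage surface proteins encoded by Adgre1 and Itgam, per the labels. All 5 libraries came from cells given 10 ng/ml interleukin 4 (IL-4) and harvested 24 h later. In 3 libraries (replicates 3, 4 and 5) the cells had first received 30 µM CBR-5884, an inhibitor of PHGDH, the enzyme of the committed step of serine synthesis; in the other 2 (replicates 3 and 5) they had received solvent. Macrophages that had no IL-4 were not analysed here. Whether a replicate stands for its own animal or culture is not in the labels, so each p-value below reflects only the spread among these libraries, which may be technical.

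LXRs are nuclear receptors that bind oxysterols, oxidised forms of cholesterol, and pair with retinoid X receptors (RXRs) on DNA. Without ligand they hold corepressors at their target genes, and with ligand they switch on genes that move cholesterol out of the cell and onto lipoprotein particles. In macrophages this response limits the build-up of cholesteryl esters, the form in which foam cells store cholesterol. It stands opposite SREBP2, the factor that raises cholesterol synthesis and uptake when sterols are low.

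The LXR and RXR pair recognises a direct repeat of the half-site AGGTCA with a spacer of 4 bases (DR4). Of the 10 genes, 9 had an entry in the RefSeq promoter table (GRCm38.p6; 12 windows of 250 bases before to 50 bases after a start, since some genes have several); Abcg1 had none. Allowing up to 3 mismatches in the 12 half-site letters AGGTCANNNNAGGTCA on either strand, 21.9% of the 32851 windows in the table held a match. Among the windows of these genes 1 did, that of Abca1, with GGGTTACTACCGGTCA on the strand opposite to the gene, at positions -67 to -52 from its start. Of other motifs searched, the repeat with a spacer of 1 base (AGGTCANAGGTCA, up to 3 mismatches) was found in the windows of Lpcat3, Apoc2 and Apoe against 24.6% of all windows. The E-box CACGTG was found in the Abca1 window against 7.15% of all windows. The core of the antioxidant response element, TGACNNNGC, was found in the Soat1 window against 12.4% of all windows. Each window counted once for a motif. A match is a run of letters, not a measured site. The 250 bases before the start of Abca1 (chr4:53159896-53160145, minus strand, DR4 match in capitals as it reads on the gene's strand) and of Soat1 (chr1:156474329-156474578, minus strand, antioxidant core in capitals) are shown because Abca1 is the gene of the set with a DR4 match and Soat1 had the lowest p among the members.
Abca1: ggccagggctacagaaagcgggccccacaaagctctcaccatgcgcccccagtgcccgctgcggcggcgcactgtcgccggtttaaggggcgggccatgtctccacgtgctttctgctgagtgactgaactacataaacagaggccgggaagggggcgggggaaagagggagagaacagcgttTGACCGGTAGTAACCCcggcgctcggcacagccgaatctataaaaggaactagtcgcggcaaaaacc
Soat1: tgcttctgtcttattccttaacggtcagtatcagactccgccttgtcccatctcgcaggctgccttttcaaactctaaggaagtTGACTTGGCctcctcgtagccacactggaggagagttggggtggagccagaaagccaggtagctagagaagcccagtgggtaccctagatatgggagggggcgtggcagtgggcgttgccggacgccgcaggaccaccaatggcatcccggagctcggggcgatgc

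None of the 9 genes of the set that could be tested passed the test between CBR-5884 and solvent. In values, Soat1, Lpcat3 and Mylip were higher in each CBR-5884 library than in each solvent library, as were 16.6% of all genes tested. Apoe and, by a narrow margin, Nr1h3 were lower in each, as were 24.9% of all genes tested. The pumps Abca1 and Abcg1 overlapped. Differences were fitted with limma on log2(FPKM + 1) over the 10770 genes with a mean of at least 1 FPKM, and a gene was called at a Benjamini-Hochberg adjusted p below 0.05. By that rule 24 genes were called, 0.223% of all tested (0.0464% higher and 0.176% lower), and 0 of the 9. At an unadjusted limma p below 0.05 there were 3 of the 9 higher, against 7.24% of all genes tested, and 1 lower, against 12.4%. The median log2 fold change was 0.02 over the 9 genes and -0.03 over all genes tested.

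**Figure D1:**
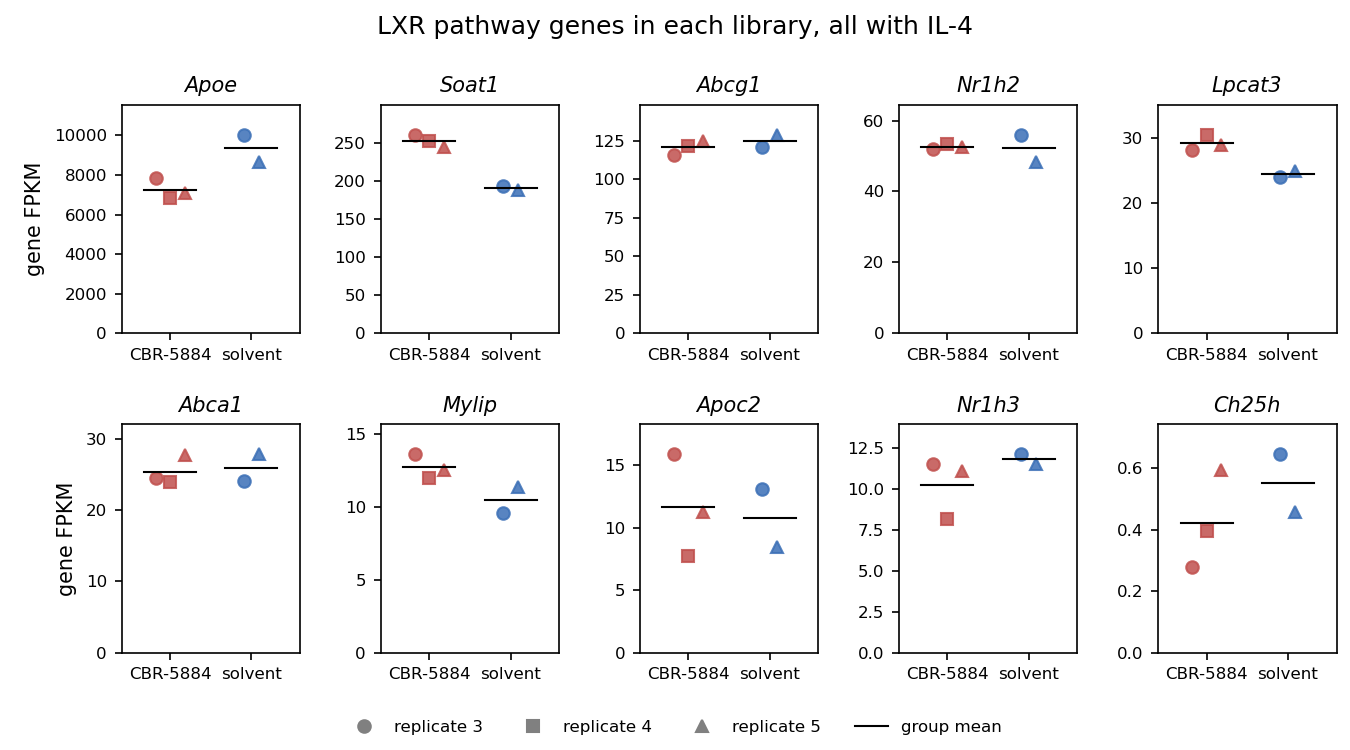
Gene FPKM (vertical axes, linear from 0) of the 10 genes in the 3 IL-4 libraries with CBR-5884 (red) and the 2 with solvent (blue); marker shapes give the replicate number and lines the group means. Soat1, Lpcat3 and Mylip are higher in every CBR-5884 library, Apoe and, narrowly, Nr1h3 are lower, and Abca1, Abcg1, Nr1h2, Apoc2 and Ch25h overlap.

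The receptors were present at unequal levels. Nr1h2 encodes LXRβ, the form found in most tissues (ENSMUSG00000060601, chromosome 7, 44549616 to 44553951, GRCm38). Its FPKM was 52.1, 53.5 and 52.5 with CBR-5884 and 56.0 and 48.3 with solvent, so that the solvent libraries lay on either side of the others. Nr1h3 encodes LXRα, the form enriched in liver, fat and macrophages (chromosome 2, 91184061 to 91202834). Its FPKM was 11.5, 8.15 and 11.1 with CBR-5884 and 12.1 and 11.5 with solvent. The highest CBR-5884 value (11.509) and the lowest solvent value (11.528) were next to each other, and CBR-5884 replicate 4 was apart from the other libraries. Within each library Nr1h2 exceeded Nr1h3 by 4.19 to 6.57 times. On the log2 scale the difference was 0.02 for Nr1h2 (SE 0.08, 95% interval -0.18 to 0.22, limma adjusted p = 0.909) and -0.20 for Nr1h3 (SE 0.16, 95% interval -0.62 to 0.22, limma adjusted p = 0.521). Without CBR-5884 replicate 4 the Nr1h3 value was -0.06, and with its most abundant reference transcript it was -0.93 (limma adjusted p = 0.734).

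The sums of both receptors rest on transcripts that the estimation split in different ways between libraries. Of the reference transcripts of Nr1h2, Nr1h2-203 was at 22.8, 19.6 and 17.1 FPKM under CBR-5884 against 23.0 and 24.4 with solvent. Nr1h2-204 was at 9.16, 13.1 and 5.95 FPKM under CBR-5884 against 21.4 and 23.9 with solvent. Nr1h2-201 was at 9.24, 8.88 and 9.30 FPKM under CBR-5884, while each solvent library listed it at 0. Nr1h2-202 was at 7.93 FPKM in CBR-5884 replicate 5 and was listed at 0 in every other library. A transcript assembled from the reads added 10.9 to 12.2 FPKM in 4 libraries and was not listed in solvent replicate 5. The deposited 95% intervals of Nr1h2-204 did not meet between the groups (4.92 to 14.6 with CBR-5884, 19.3 to 26.0 with solvent), but they cover estimation within a library only, and the sum over all transcripts did not differ by more than its spread. Nr1h3-201, at 7.05 to 8.21 FPKM in 4 libraries, was listed at 0 in CBR-5884 replicate 4, where Nr1h3-202 carried the whole 8.15 FPKM of the gene. An exact 0 of a transcript can be a failed estimate, and the transcripts were not tested.

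**Figure D2:**
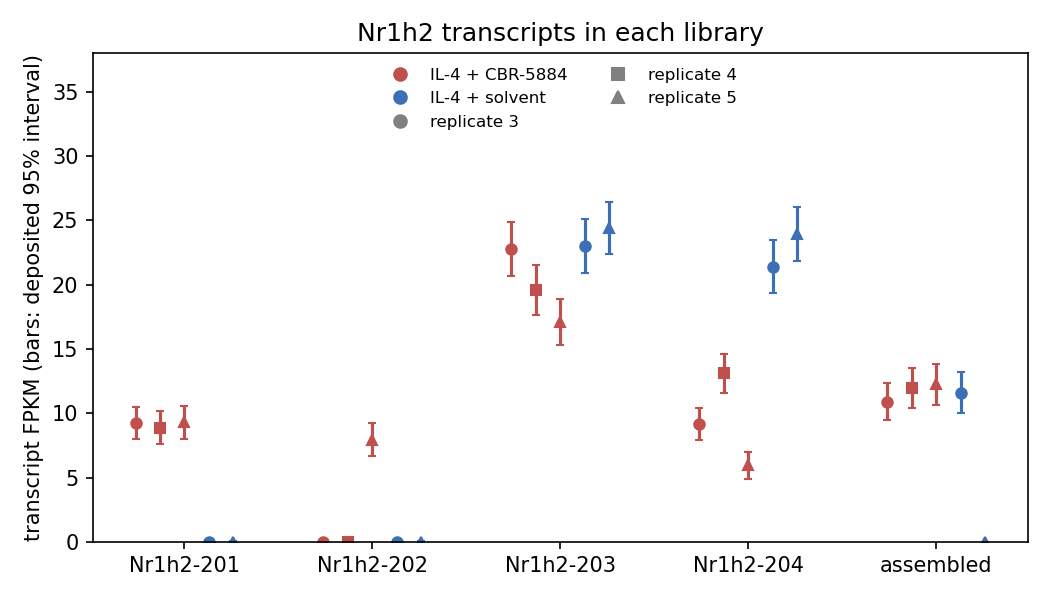
FPKM of each Nr1h2 transcript above 0 in some library (horizontal axis; "assembled" is the transcript built from the reads, drawn at 0 in solvent replicate 5, where it was not listed) in the CBR-5884 (red) and solvent (blue) libraries, with the deposited 95% intervals as bars and marker shapes for replicates. Nr1h2-201 is near 9 FPKM in the red libraries and at 0 in the blue, and Nr1h2-204 is 5.95 to 13.1 in the red and 21.4 to 23.9 in the blue.

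The export pumps differed by less than the spread between libraries. Abca1 moves cholesterol and phospholipid onto lipid-poor apolipoprotein A1 (ENSMUSG00000015243, chromosome 4, 53030787 to 53159895). Its FPKM was 24.5, 23.9 and 27.7 with CBR-5884 and 24.0 and 27.8 with solvent. Both groups thus held a library near 24 and a library near 28. Abcg1, which hands cholesterol to mature high-density lipoprotein (chromosome 17, 31057675 to 31117988), was at 115.9, 121.9 and 124.8 FPKM under CBR-5884 against 121.0 and 128.9 with solvent. The groups overlapped here too. The log2 fold change was -0.03 for Abca1 (SE 0.10, 95% interval -0.29 to 0.24, limma adjusted p = 0.89) and -0.05 for Abcg1 (SE 0.06, 95% interval -0.20 to 0.10, limma adjusted p = 0.669). Per length of transcript, Abcg1 was 4.51 to 5.10 times as abundant as Abca1 in the 5 libraries.

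Apoe was the most abundant gene of the set and ranked 5 among all genes in every library. It encodes apolipoprotein E, which macrophages secrete and which takes up cholesterol at the cell surface (ENSMUSG00000002985, chromosome 7, 19696109 to 19699188). Its FPKM was 7847, 6827 and 7066 with CBR-5884 and 10037 and 8660 with solvent. Every CBR-5884 library was below both solvent libraries, and 1 of its 6 reference transcripts, Apoe-209, carried the value in all 5. Its log2 fold change was -0.37 (SE 0.10, 95% interval -0.62 to -0.11, limma adjusted p = 0.172). It was -0.32 on the TPM scale, -0.33 with median-ratio size factors and between -0.26 and -0.47 when 1 library was left out. After quantile normalization it was -0.07 (limma adjusted p = 0.501). That method gives like values to like ranks, so little difference could remain for a gene ranked 5 in every library.

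Apoc2 lies in the same gene cluster and encodes the cofactor of lipoprotein lipase (chromosome 7, 19671579 to 19677941). Its FPKM was 15.9, 7.73 and 11.3 with CBR-5884 and 13.1 and 8.49 with solvent. No group was higher, and the interval of its log2 fold change was the widest of the set (0.07, SE 0.34, 95% interval -0.83 to 0.98, limma adjusted p = 0.915). In CBR-5884 replicate 4 Apoc2-202 was listed at 0 and an assembled transcript carried 6.96 FPKM. The readthrough gene Gm44805 shares 646 of the 813 exonic bases of Apoc2 on the same strand, so the 2 genes share reads and their values are uncertain. Gm44805 was at 0, 0.784 and 0 FPKM under CBR-5884 against 3.02 and 3.73 with solvent, and with it added the log2 fold change of Apoc2 was -0.26 (limma adjusted p = 0.633).

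Soat1 had the largest log2 fold change in size among the 9 genes and the smallest p. It encodes the enzyme that esterifies cholesterol for storage in lipid droplets (ENSMUSG00000026600, chromosome 1, 156424525 to 156474331). Its FPKM was 260.7, 251.9 and 244.9 with CBR-5884 and 193.2 and 188.5 with solvent. The groups were far apart against their own spread (252.5 ± 7.96, SD, n = 3, and 190.9 ± 3.30, SD, n = 2). This made a log2 fold change of 0.40 (1.32-fold, SE 0.05, 95% interval 0.28 to 0.52, limma adjusted p = 0.086), higher in 3 of 3 libraries than in both solvent libraries. Both reference transcripts above 0 showed it: Soat1-201 was at 218.2, 211.0 and 204.6 FPKM against 160.7 and 156.4, and the longer Soat1-207 at 42.5, 41.0 and 40.2 against 32.5 and 32.1. Over 18 alternatives the log2 fold change stayed between 0.38 and 0.45, and the adjusted p between 0.0734 and 0.331. Alternatives that change only the low-value filter or the variance estimate could not move the fold change.

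Lpcat3 and Mylip, targets of LXR outside export, were also higher in the CBR-5884 libraries without passing the test. Lpcat3 encodes an enzyme that puts polyunsaturated chains into membrane phospholipids (chromosome 6, 124663027 to 124704418). Its FPKM was 28.2, 30.6 and 29.0 with CBR-5884 and 24.1 and 24.9 with solvent, with no overlap. The log2 fold change was 0.25 (1.19-fold, SE 0.06, 95% interval 0.10 to 0.39, limma adjusted p = 0.146). Lpcat3 shares 334 exonic bases with Emg1 on the opposite strand, and whether strand was used in estimation is not known, so its value is uncertain in part. Emg1 itself was at 27.6 to 31.4 FPKM, with no group above the other.

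Mylip encodes IDOL, the ubiquitin ligase that marks the LDL receptor for degradation (chromosome 13, 45389742 to 45412022). Its FPKM was 13.6, 12.0 and 12.6 with CBR-5884 and 9.61 and 11.3 with solvent. The lowest CBR-5884 value stood just above the higher solvent value, which includes 1.96 FPKM of a transcript assembled in that library alone. For Mylip the log2 fold change was 0.26 (1.20-fold, SE 0.09, 95% interval 0.01 to 0.51, limma adjusted p = 0.249). It was 0.15 without solvent replicate 3. The reference transcript alone was at 9.61 and 9.37 FPKM in the solvent libraries, which gave 0.39 (limma adjusted p = 0.209).

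Ch25h encodes cholesterol 25-hydroxylase, which makes the oxysterol 25-hydroxycholesterol and is induced by interferon in macrophages. Its FPKM was 0.279, 0.396 and 0.594 with CBR-5884 and 0.647 and 0.458 with solvent (chromosome 19, 34473778 to 34475164). The groups overlapped, and the gene was below the minimum for testing. At the depth implied by the files these values stand for 11 to 25 fragments per library, so a difference of this size was not detectable. The other members had 124 (Apoc2, CBR-5884 replicate 4) to 319722 implied fragments (Apoe, solvent replicate 3).

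**Figure D3:**
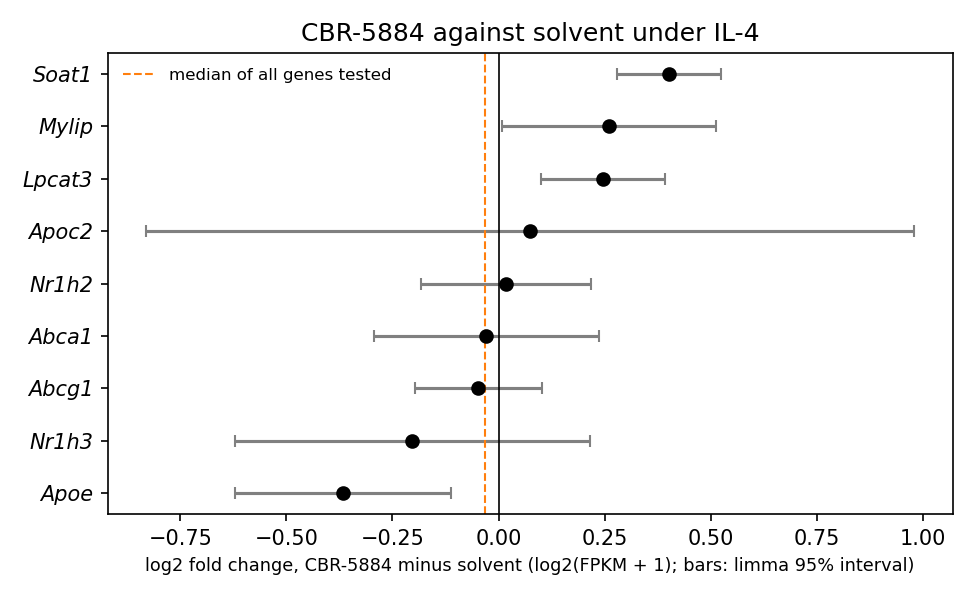
Log2 fold change of CBR-5884 minus solvent (horizontal axis, log2(FPKM + 1) scale) for the 9 genes tested, with limma's 95% interval, not adjusted for the number of genes; the dashed line is the median of all genes tested (-0.03). The intervals of Soat1, Lpcat3 and Mylip lie above 0 and that of Apoe below it, while no gene passed the adjusted test.

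In order of mean FPKM the set ran from Apoe (8087) over Soat1 (227.8), Abcg1 (122.5) and Nr1h2 (52.5) to Lpcat3 (27.4), Abca1 (25.6), Mylip (11.8), Apoc2 (11.3), Nr1h3 (10.9) and Ch25h (0.475). Down to Nr1h2 the ranges over 5 libraries did not overlap. Those of Lpcat3 and Abca1 did, as did those of Mylip, Apoc2 and Nr1h3. Groups that did not overlap were found for 3 of the 9 genes with CBR-5884 above solvent, against 16.6% of all genes tested. With CBR-5884 below solvent there were 2 (Apoe and, by the margin given, Nr1h3) against 24.9%.

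The 10 genes listed as partners or coregulators of the receptors were all expressed, and none passed the test (6 with a positive and 4 with a negative log2 fold change, median 0.01). Trip12, a ubiquitin ligase, is on this list, but a link of it to the LXRs was not tested. It was at 55.3, 56.9 and 54.1 FPKM under CBR-5884 against 50.2 and 50.1 with solvent (log2 fold change 0.14, limma adjusted p = 0.211, SE 0.04). Its groups did not overlap. On this list that held for 1 gene with CBR-5884 above solvent, against 16.6% of all genes tested. It held for 3 genes with CBR-5884 below solvent, against 24.9%.

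Of 24 other genes known as LXR targets 21 were tested, none passed, and the log2 fold changes spread to both sides (9 positive, 12 negative, median -0.02). At an unadjusted p below 0.05 there were 6 higher, against 7.24% of all genes tested, and 3 lower, against 12.4%. Fads1, a fatty acid desaturase, was at 43.3, 41.6 and 43.0 FPKM under CBR-5884 against 35.5 and 33.7 with solvent (log2 fold change 0.29, limma adjusted p = 0.126, SE 0.05). With reference transcripts only its log2 fold change was 0.02. Acsl3, which activates fatty acids at lipid droplets, was at 7.53, 8.87 and 7.88 FPKM against 5.77 and 4.85 (log2 fold change 0.53, limma adjusted p = 0.132, SE 0.10). With its most abundant reference transcript the Acsl3 value was 0.20, and with a pseudocount of 5 it was 0.345.

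Genes of sterol transport and storage gave 22 tested genes of 27, 13 of them positive and 9 negative (median log2 fold change 0.09), and none passed. At an unadjusted p below 0.05 the higher genes numbered 6 and the lower 3, beside the same 7.24% and 12.4% over all genes. Nceh1, which hydrolyses the cholesteryl esters that Soat1 makes, was at 118.3, 111.6 and 111.0 FPKM under CBR-5884 against 95.03 and 96.2 with solvent (log2 fold change 0.25, limma adjusted p = 0.132, SE 0.05). Both enzymes were thus higher in every CBR-5884 library, and the ratio of Soat1 to Nceh1 was 2.20 to 2.26 there and 2.03 and 1.96 with solvent. Rab7, a GTPase of late endosomes, was at 270.8, 275.3 and 275.5 FPKM against 237.4 and 229.7 (log2 fold change 0.23, limma adjusted p = 0.126, SE 0.04). Its log2 fold change was 1.35 with reference transcripts only and 3.82 with its most abundant reference transcript, neither of which passed.

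**Figure D4:**
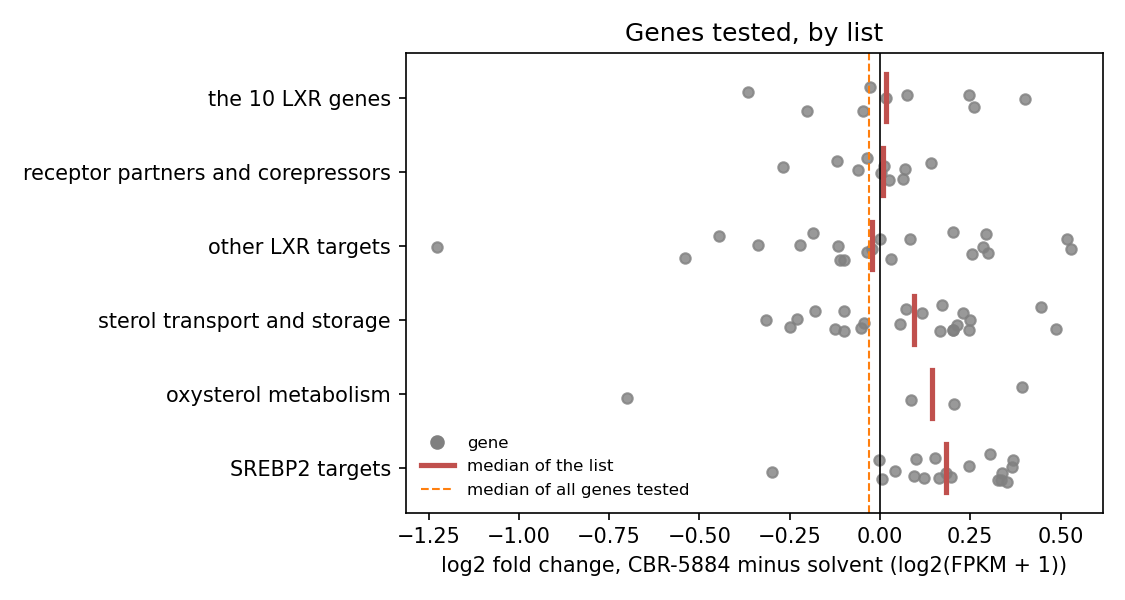
Log2 fold change of CBR-5884 minus solvent (horizontal axis, log2(FPKM + 1) scale) of every tested gene (grey points, spread vertically for visibility) in the LXR set and 5 related lists, with list medians in red and the median of all genes tested dashed. Medians run from -0.02 for the other LXR targets to 0.18 for the SREBP2 targets, and no point shown passed the adjusted test.

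Oxysterol metabolism was represented by 4 tested genes of 10 (3 positive, 1 negative, median 0.15), and none passed. Cyp27a1 makes 27-hydroxycholesterol, an LXR ligand. It was at 25.5, 25.0 and 31.2 FPKM under CBR-5884 against 32.3 and 61.6 with solvent, the last library standing apart. This gave a log2 fold change of -0.70 (limma adjusted p = 0.297, SE 0.30). The value was -0.25 without solvent replicate 5, -1.16 without solvent replicate 3 and -0.30 with reference transcripts only. In implied fragments Cyp27a1 had 1662, 1542 and 1987 against 1972 and 2252, so the solvent libraries were nearer to each other than in FPKM. The sharing of fragments over transcripts of unlike length was not tested. Gpr183, the receptor for an oxysterol made with the help of Ch25h, was at 9.20, 9.67 and 8.11 FPKM against 7.20 and 6.04 (log2 fold change 0.39, limma adjusted p = 0.179, SE 0.11).

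On the SREBP2 side 19 of 22 genes were tested and 17 had a positive log2 fold change (median 0.18), against 4772 positive of the 10770 over all genes. None passed, and 1 was higher at an unadjusted p below 0.05, where the share over all genes was 7.24%. That gene was Hmgcs1, an early enzyme of cholesterol synthesis, at 59.1, 63.2 and 52.3 FPKM under CBR-5884 against 49.5 and 43.0 with solvent (log2 fold change 0.33, limma adjusted p = 0.226, SE 0.11). Cyp51, a demethylase later in the pathway, was at 24.0, 28.2 and 23.5 FPKM against 22.1 and 17.5 (log2 fold change 0.34, limma adjusted p = 0.276, SE 0.14). Without solvent replicate 5 the Cyp51 value was 0.18. These genes were listed with the direction of cholesterol synthesis genes in these libraries known, so the count is not independent evidence of it.

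Markers of the labelled cell type were present: all 8 macrophage markers averaged at least 1 FPKM, with Adgre1 at 299.4 to 338.4 and Itgam at 157.9 to 221.3. Their sum was 9743 to 13078 FPKM under CBR-5884 against 11011 to 13092 under solvent, most of it from Lyz2 (6963.5 to 10378). Of the 8, 2 were higher in each CBR-5884 library (Cd68 and Itgam) and 2 lower (Fcgr1 and Cd14). Over all genes tested these shares were 16.6% and 24.9%. The summed FPKM of 6 monocyte markers was 4.38 to 4.87 with CBR-5884 and 9.01 to 10.3 with solvent, and 1 of them, Ccr2, passed the test. The sum of 6 fibroblast markers was 10.8 to 17.1 and 17.9 to 18.9 FPKM, that of 7 dendritic cell markers 0.977 to 1.596 and 1.83 to 3.06, and that of 8 neutrophil markers 10.5 to 13.6 and 10.9 to 22.2, with Ly6g listed at 0. B cell, T or NK cell and mast cell markers summed to at most 1.18 FPKM, and all 6 erythroid markers were listed at 0. The monocyte, fibroblast and dendritic cell sums were lower with CBR-5884, as Apoe was. Most of the monocyte sum was Ccr2 (3.45 to 3.71 FPKM with CBR-5884, 7.66 and 8.19 with solvent), and each dendritic cell marker averaged below 1 FPKM. Lower in each CBR-5884 library were 2 of 6 monocyte, 2 of 6 fibroblast, 3 of 7 dendritic cell and 3 of 8 neutrophil markers. Over all genes tested that share was 24.9%. The part of these cell types in the Apoe, Soat1, Lpcat3 and Mylip values was not tested. In RNA from whole cultures, fewer cells of a type and less RNA per cell cannot be told apart.

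**Figure D5:**
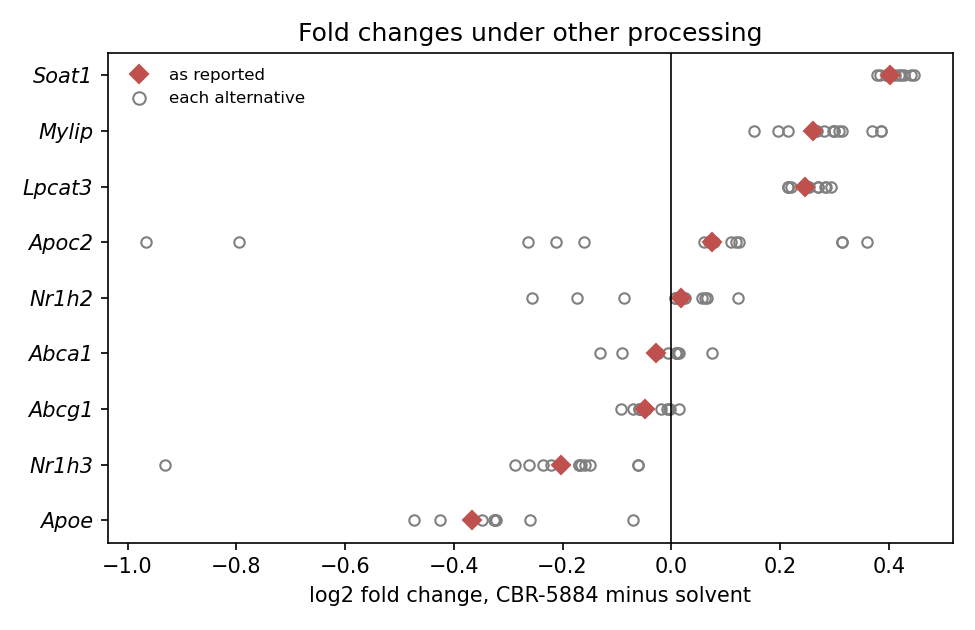
Log2 fold change of CBR-5884 minus solvent (horizontal axis) for the 9 genes tested as reported (red diamonds) and under each alternative way of processing (open circles; 19 for Apoc2, 18 for the others). Soat1, Lpcat3, Mylip, Nr1h3 and Apoe keep their sign in every alternative run. Their groups do not overlap, so most of these runs could not turn the sign. That holds for leaving out a library, for the pseudocount, the low-value filter and the variance estimate, and for the replicate number as a block. Under the TPM scale, size factors and quantile normalization the sign was open to change. Apoc2, Nr1h2, Abca1 and Abcg1 have circles on both sides of 0. Alternatives that change only the low-value filter or the variance estimate cannot move a circle. Nor can the use of reference transcripts only for Soat1, Lpcat3, Nr1h3 and Apoe, which have no assembled transcript.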

How the data were processed

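RNA was measured in 5 libraries (3 IL-4 with CBR-5884, 2 IL-4 with solvent), grouped by the treatment label. Per the labels' protocols, a directional kit and single reads of 75 bp were used. Bowtie2, TopHat2 and Cufflinks with build mm10 (GRCm38) are named in the submitters' processing notes; tool versions, gene annotation and use of strand were not given in the sources used here. Per the file headers and contents, the authors deposited 1 Cufflinks transcript file per library, with FPKM and a 95% interval for each transcript; no scaling across libraries is recorded. Coverage over FPKM implies 30230000 to 30700000 fragments per CBR-5884 library and 28310000 to 28850000 per solvent library.

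Gene FPKM was the sum over reference transcripts, matched to genes through GENCODE M21 (70923 transcripts), and over assembled transcripts of at least 200 nt with at least 50% of their exonic bases in the gene's exons on its strand. Unassigned transcripts held 64.0% to 70.3% of the summed FPKM but 8.55% to 10.2% of the covered bases. A further step left out 95 of the 49341 genes because not every library listed them. Testing was limited to a mean of 1 FPKM or more and used limma 3.58.1 in R 4.3.3 (two-sided, eBayes with trend) on log2(FPKM + 1), which understates the change of low genes, with Benjamini-Hochberg adjustment; 3 residual degrees of freedom remain. The fit was also run on simulated data with planted changes larger than any reported for the members. That run does not show whether changes of the members' size would be called. The 10 genes and the 14 other lists (5 of the pathway, 9 of markers) were chosen with earlier results of these data known. Named beside the 10 are the 2 genes with the smallest p of each pathway list, any that passed, genes that overlap a member, and some cell type markers. No gene was named for a like pattern, since 5 libraries are too few. Alternatives were 18 planned settings and, added after the data were seen, the sum of Apoc2 and Gm44805. Mvd was not analysed here. Also, 1 gene that the naming rule selects is not reported here.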

Additional observations from a re-analysis of the deposited data

How the results depend on the processing

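No gene of the set and no gene of the 5 related lists was called in any of the 18 alternatives run. Over all genes 24 were called as reported, 38 with no filter on low values, 9 at a mean FPKM of at least 5, 39 with reference transcripts only (19 higher and 20 lower, against 5 and 19), 3 with the replicate number as a block (replicate block), and 19 to 89 when 1 library was left out. The 89 and 66 calls came without solvent replicate 3 and solvent replicate 5, where the lone solvent library is assumed to vary like the other group. The median log2 fold change of the set, 0.02 as reported, was 0.0618 on the TPM scale, 0.0563 with median-ratio size factors, 0.0662 with quantile normalization, -0.0590 both with reference transcripts only and with the most abundant reference transcript, and -0.0067 to 0.1225 when 1 library was left out. The sign of Abca1 turned on the TPM scale (0.0143), with median-ratio size factors (0.0092) and with quantile normalization (0.0088). It also turned without CBR-5884 replicate 4 (0.0111) and without solvent replicate 5 (0.0741). The replicate block repeats the value without CBR-5884 replicate 4 (0.0111), since that replicate number has no solvent library and adds nothing to the difference. When 1 library was left out, Abca1 ranged from -0.1315 to 0.0741. The sign of Abcg1 turned with quantile normalization (0.0151). The sign of Nr1h2 turned with reference transcripts only (-0.17), with the most abundant reference transcript (-0.26) and without solvent replicate 5 (-0.0873). That of Apoc2 turned with reference transcripts only (-0.79), with the most abundant one (-0.97), with Gm44805 added (-0.26), without CBR-5884 replicate 3 (-0.16) and without solvent replicate 5 (-0.21), with a range of -0.21 to 0.3608 when 1 library was left out. The cause of these turns was not tested. The 2 replicate numbers shared by the groups are too few to show pairing: the deviations of same-numbered libraries from their group means correlated at 0.070 (replicate 3) and 0.082 (replicate 5) across genes. The replicate block changed no call of the set and left fewer residual degrees of freedom than the 3 of the main fit. Soat1 was at 0.40 there (limma adjusted p = 0.331). Depth limits Ch25h (11 to 25 implied fragments per library) and Apoc2 (124 to 307) most, and 2 solvent libraries limit every comparison.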
